A study of Mus musculus with 8 samples.

Results

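The constitutive proteasome genes were taken as every symbol of the count table that starts with *Psma*, *Psmb*, *Psmc* or *Psmd* and a number, except the inducible catalytic subunits *Psmb8*, *Psmb9* and *Psmb10*. This rule found 35 genes of the 15859 in the table, and all 35 were among the 14371 genes whose mean normalized count exceeded 5 and which were tested. They held 7 genes of the 20S alpha ring, 7 of the 20S beta ring, 6 of the 19S ATPase ring, 3 other subunits of the 19S base, 8 of the 19S lid and 3 chaperones of 19S assembly. The remaining gene, *Psmc3ip*, matches the letters of the rule, but its product is a partner in meiotic recombination and no part of the proteasome, so 31 genes were subunits proper. The tissue-restricted alpha and beta forms *Psma8* and *Psmb11* were not among the symbols of the table.

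RNA of the distal colon was sequenced from 8 male mice, 2 each of WT at day 0, *Hsf1* null at day 0, WT at day 15 and *Hsf1* null at day 15 (groups named as in the sample titles). WT and *Hsf1* null mice shared a mixed BALB/c x 129SvEV background, and the null mice are labelled as null for *Hsf1*, which encodes the main transcription factor of the heat shock response. Mice of both day 15 groups had received 10 mg/kg azoxymethane (AOM, a carcinogen) by intraperitoneal injection at 8 weeks of age and 1.5% dextran sulfate sodium (DSS, an agent that damages the epithelium) in drinking water for 5 days from day 7. They were collected at day 15, after the DSS had ended, while the day 0 mice were untreated controls given as age-matched. All mice are labelled as 10 weeks old.

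The proteasome degrades proteins tagged with ubiquitin. Its core, the 20S particle, is a barrel of outer rings made of alpha subunits, which gate the entry, and inner rings made of beta subunits, of which *Psmb5*, *Psmb6* and *Psmb7* encode the catalytic ones. The 19S particle caps the barrel: its base holds a ring of ATPases that unfold the substrate and pull it in, and its lid removes the ubiquitin chain. In inflamed tissue interferon replaces the catalytic subunits by the inducible forms, and when proteasome function is short the transcription factor encoded by *Nfe2l1* raises many subunit genes together.

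Libraries held 2553348 to 12440257 counts, and the smallest were those of WT day 0 replicate 2 and *Hsf1* null day 0 replicate 2, the latter with 2675976. Levels are given as CPM, read counts divided by the library size in megareads after TMM scaling, which makes most genes equal between libraries on average. *Hsf1* itself stood at 40.5 and 36.5 CPM in WT at day 0, at 14 and 11.9 in the null mice at day 0, at 50.5 and 45.9 in WT at day 15 and at 13.5 and 9.09 in the null mice at day 15. Every null library was below every WT library, with reads of the gene remaining. Markers of absorptive colonocytes were present in every library, with all 8 markers counted and a summed level of 7617 to 15588 CPM. Libraries also differed by base composition: over the 3073 tested genes with a transcript GC content below 45%, the median deviation from the mean of the 8 libraries was 0.58 (log2) in *Hsf1* null day 0 replicate 2, against 0.09 to 0.17 in the other day 0 libraries and -0.10 to -0.42 at day 15. Numbers of the mice, from 1 to 2 in each group, name different animals, and an exact permutation test of 2 against 2 mice cannot go below p = 0.333, so all tests below come from 1 model fitted across all genes.

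Levels spanned a wide range among the genes. Per kb of transcript and over all 8 mice, *Psmb1*, a structural subunit of the beta ring, was highest at 286 CPM, followed by *Psma7* of the alpha ring at 246 and *Psmd8* of the lid at 235. The lowest subunits proper were *Psmc6* of the ATPase ring at 19.1 CPM per kb and *Psma3* of the alpha ring at 22.8. The chaperones *Psmd9*, *Psmd10* and *Psmd5* stood below all subunits proper, at 14, 13.1 and 10.4 CPM per kb, and *Psmc3ip* was at 3.48. The smallest count of a subunit proper in any library was 53. Summed over the 35 genes, the level was 3448 ± 302 CPM (SD, n = 2) in WT at day 0, 3861 ± 37.8 in *Hsf1* null at day 0, 4942 ± 211 in WT at day 15 and 4825 ± 456 in *Hsf1* null at day 15. In both genotypes each treated mouse was above each untreated one.

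**Figure D1:**
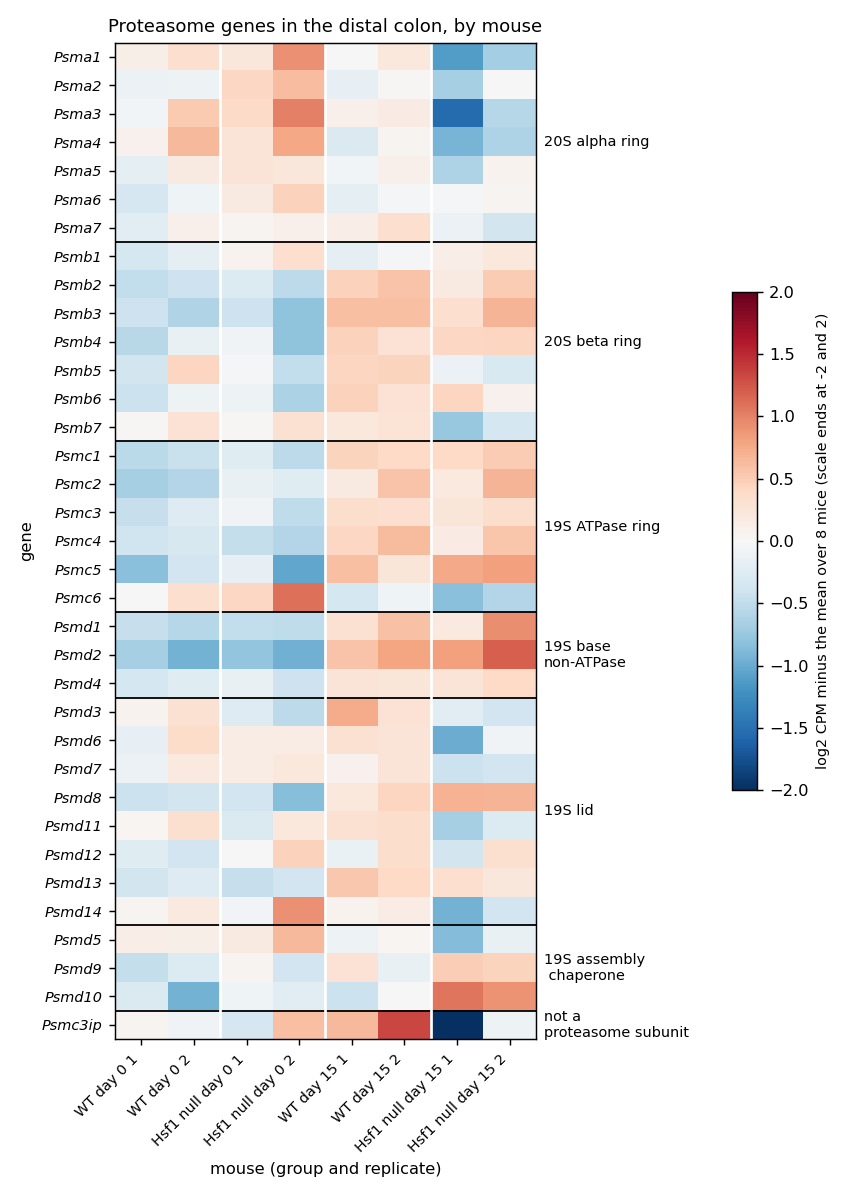
Level of each of the 35 genes (rows, ordered by role) in each of the 8 mice (columns, by group and replicate), as log2 CPM minus the gene's mean over the 8 mice, in red above and in blue below it. Genes of the ATPase ring other than *Psmc6* and of the rest of the base are red at day 15 in both genotypes, while *Psma1*, *Psma3* and *Psma4* of the alpha ring are blue in both null mice at day 15.

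The sequence upstream of the start is shown for 5 genes on which the comparisons turn, *Psmd2* and *Psmb3*, which rose from day 0 to day 15 in both genotypes, and *Psma1*, *Psma3* and *Psmc6*, which fell in the null mice. Each line holds the 250 bases before the start site, 5′ to 3′ on the strand of the gene, from RefSeq on GRCm38.p6. Capitals mark matches to TGACNNNGC (the core of the element bound by the products of *Nfe2l1* and *Nfe2l2*), to GAANNTTC or TTCNNGAA (inverted units of the heat shock element bound by HSF1) and to CCAAT (bound by NF-Y), searched on both strands. The windows lie at chr16:20651402-20651651 (plus strand, *Psmd2*), chr11:97703184-97703433 (plus strand, *Psmb3*), chr7:114276117-114276366 (minus strand, *Psma1*), chr12:70974373-70974622 (plus strand, *Psma3*), chr14:45329574-45329823 (plus strand and *Psmc6*).
*Psmd2*: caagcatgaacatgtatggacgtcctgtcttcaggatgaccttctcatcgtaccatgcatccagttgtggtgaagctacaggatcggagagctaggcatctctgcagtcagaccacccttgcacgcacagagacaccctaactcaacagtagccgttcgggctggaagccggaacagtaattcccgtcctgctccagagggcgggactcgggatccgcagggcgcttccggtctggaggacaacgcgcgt
*Psmb3*: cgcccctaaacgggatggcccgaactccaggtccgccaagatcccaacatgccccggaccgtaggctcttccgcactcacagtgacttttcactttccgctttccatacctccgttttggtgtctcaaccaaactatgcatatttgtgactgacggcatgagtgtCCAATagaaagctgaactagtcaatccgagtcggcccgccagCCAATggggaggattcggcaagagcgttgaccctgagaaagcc
*Psma1*: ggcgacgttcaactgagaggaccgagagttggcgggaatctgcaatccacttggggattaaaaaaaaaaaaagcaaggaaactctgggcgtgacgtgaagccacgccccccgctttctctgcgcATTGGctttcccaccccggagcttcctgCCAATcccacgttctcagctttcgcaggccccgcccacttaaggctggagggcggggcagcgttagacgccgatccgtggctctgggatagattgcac
*Psma3*: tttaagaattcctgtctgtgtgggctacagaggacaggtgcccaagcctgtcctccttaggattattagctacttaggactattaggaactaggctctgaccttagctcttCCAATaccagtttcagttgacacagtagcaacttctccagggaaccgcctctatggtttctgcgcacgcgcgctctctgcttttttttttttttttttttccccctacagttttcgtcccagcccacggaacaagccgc
*Psmc6*: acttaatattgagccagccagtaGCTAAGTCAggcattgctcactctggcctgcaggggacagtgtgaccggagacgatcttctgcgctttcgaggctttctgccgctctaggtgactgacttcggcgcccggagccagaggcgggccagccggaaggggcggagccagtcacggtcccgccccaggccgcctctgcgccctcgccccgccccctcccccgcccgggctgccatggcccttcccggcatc
Of the 5 windows, *Psmd2* held none of these letters, *Psmb3* and *Psma1* held CCAAT on 2 places each, *Psma3* on 1 and *Psmc6* held the first element on 1, read there from the other strand. Over all 35 genes, 29 had an entry of 300 bases (the 250 above and 50 beyond the start), in 31 windows. TGACNNNGC was in 16.1% of these and in 12.4% of all 32851 windows, the heat shock units in 6.45% and 15.1%, and CCAAT in 38.7% and 37.4%. The 2 windows with heat shock units were those of *Psmb5* and *Psmd4*, and the 5 with TGACNNNGC those of *Psmb5*, *Psmb6*, *Psmc6*, *Psmd9* and *Psmd12*. Member windows were richer in CpG, with a median of 20 per window against 7 over all. A match describes letters and no bound site. The 6 genes with no entry were *Psmb1*, *Psmb2*, *Psmb7*, *Psmc3*, *Psmd3* and *Psmd7*.

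In WT mice, 3 of 6 ATPase genes, 2 of 7 beta ring genes and 1 of 3 other base genes rose with treatment, and no member fell. From day 0 to day 15, 6 of 35 genes rose (adjusted p under 0.05, edgeR's quasi-likelihood test with Benjamini-Hochberg adjustment over 14371 genes) and 0 fell, where 3.71% of all tested genes rose and 4.43% fell. By the stricter rule of the study, which also asks for an absolute log2 fold change above 1, 3 of 35 were called, against 7.74% of all genes. DESeq2 called 9 by its adjusted p (13.8% of all genes), adding *Psmc5*, *Psmd1* and *Psmd13*, and 4 with the fold limit (12.1%), and 14 had an unadjusted p under 0.05 by edgeR (27.6%). Below, a gene passed where edgeR called it by the adjusted p. Both treated mice were above both untreated mice for 19 of the 35 genes and below for 3, against 31.0% and 31.5% of all genes, and the median log2 fold change was 0.38, against 0.0046 over all genes tested. In whole tissue, more cells with high levels and more RNA per cell cannot be told apart.

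*Psmd2* (ENSMUSG00000006998, chromosome 16, 20651652 to 20663414), the scaffold of the base on which shuttle proteins dock, was at 109 and 89.7 CPM in WT at day 0 and at 257 and 298 at day 15. The treated mice lay above both untreated mice, and the log2 fold change was 1.47 ± 0.25 (SE, adjusted p = 0.0116). Its partner scaffold *Psmd1* was at 85.6 and 79.4 CPM and then at 146 and 176, with a log2 fold change of 0.96 ± 0.27 that did not pass (adjusted p = 0.0584). The ubiquitin receptor *Psmd4* was at 77.8 and 84.6 CPM and then at 120 and 118 (adjusted p = 0.135). All 3 base genes were thus higher in both treated WT mice (31.0% of all genes were), and 1 passed the test (3.71% of all genes rose).

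In the ATPase ring, which turns ATP hydrolysis into unfolding, 3 of 6 genes rose in WT mice. *Psmc1* went from 93.6 and 101 CPM to 186 and 180, *Psmc2* from 81.4 and 85.8 to 145 and 190, and *Psmc4* from 125 and 132 to 221 and 257. Their log2 fold changes were 0.91 ± 0.22, 1.00 ± 0.25 and 0.90 ± 0.24 (SE), with adjusted p of 0.0361, 0.0404 and 0.0466. *Psmc5* had as large a difference, 53.1 and 72.3 CPM against 144 and 112, but a wider error (log2 1.04 ± 0.31, adjusted p = 0.0668), and *Psmc3* had 0.71 ± 0.24 (adjusted p = 0.0904). *Psmc6* was the only gene of this ring with both treated WT mice below both untreated ones, at 30.8 and 37.0 against 39.0 and 49.6 CPM, and did not pass (log2 -0.38, adjusted p = 0.439).

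In the beta ring 2 of 7 genes rose, and neither is catalytic. *Psmb3* (ENSMUSG00000069744, chromosome 11, 97703399 to 97713500) was at 122 and 108 CPM in WT at day 0 and at 245 and 247 at day 15 (log2 1.10 ± 0.24, adjusted p = 0.0283). *Psmb2* was at 108 and 114 CPM and then at 209 and 227 (log2 0.98 ± 0.23, adjusted p = 0.0336). Of the catalytic genes, *Psmb6* (the caspase-like activity) was at 60.3 and 75.8 CPM and then at 113 and 100 (adjusted p = 0.143), without overlap of the groups. *Psmb5* (the chymotrypsin-like activity) was at 20.8 and 36.1 CPM and then at 36.3 and 36.5, and *Psmb7* (the trypsin-like activity) at 71.8 and 86.5 and then at 81.9 and 85.8. The groups overlapped for *Psmb7*, and for *Psmb5* both treated mice were level with the higher of the untreated ones.

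None of the 7 alpha ring genes and none of the 8 lid genes passed in WT mice by edgeR, with 0 and 2 at an unadjusted p under 0.05 and 0 and 1 called by DESeq2. The summed alpha ring was at 743 and 906 CPM in WT at day 0 and at 800 and 910 at day 15, a ratio of means of 1.04, whereas the summed ATPase ring went from 524 and 592 to 958 and 1005 CPM, a ratio of 1.76. The lid gene nearest to a call was *Psmd13*, at 61.6 and 66.3 CPM and then at 115 and 104 (log2 0.78 ± 0.21, adjusted p = 0.0513). *Psmd14*, the deubiquitinase of the lid, was at 41.9 and 46.5 CPM and then at 42.3 and 44.9, with the groups overlapping and a 95% interval of the log2 fold change from -0.77 to 0.74.

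The WT counts depended on each WT mouse. In place of the 3 genes called with the fold limit, 1 was called without WT day 0 replicate 1, 0 without WT day 0 replicate 2, 1 without WT day 15 replicate 1 and 0 without WT day 15 replicate 2, and the counts by the adjusted p alone were the same. At an unadjusted p under 0.05 these fits gave 8, 12, 10 and 10 genes. The calls of the whole table dropped as well, from 1112 to 485, 133, 773 and 92 genes. The directions of the 6 genes that rose were the same in each of these fits.

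In *Hsf1* null mice, 2 of 3 base genes and 3 of 6 ATPase genes rose with treatment, while 3 of 7 alpha ring genes and the ATPase gene *Psmc6* fell. These calls were lost without *Hsf1* null day 0 replicate 2, and with offsets for GC content and transcript length *Psma1* alone of the 4 still fell. From day 0 to day 15, 8 of 35 genes rose and 4 fell, where 6.07% of all tested genes rose and 7.23% fell, and 10 of 35 were called with the fold limit, against 11.8% of all genes. DESeq2 called 15 by its adjusted p (18.5% of all genes), adding *Psma2*, *Psmb2* and *Psmd14*, and 11 with the fold limit (15.3%), and 24 had an unadjusted p under 0.05 by edgeR (32.6%). Groups did not overlap for 16 genes that were higher and 13 that were lower at day 15, where 31.0% and 30.3% of all genes did so. The median log2 fold change over the 35 genes was 0.013, against 0.052 over all genes, and single values ran from -1.70 to 1.89.

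**Figure D2:**
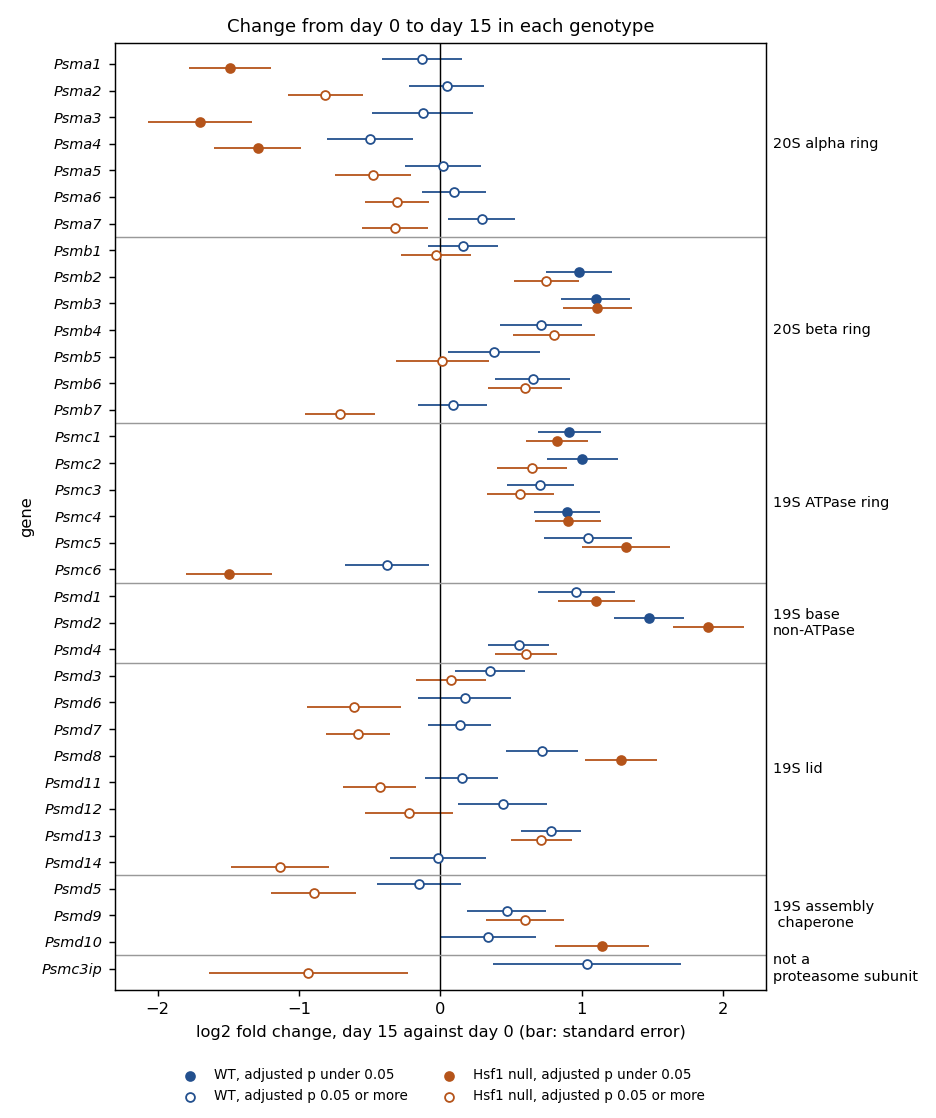
Log2 fold change from day 0 to day 15 (horizontal axis, bars are standard errors of the fit) for each gene, in WT mice in blue and in *Hsf1* null mice in orange, with filled points at an adjusted p under 0.05. In the ATPase ring and base the points of both genotypes lie together on the right except for *Psmc6*, and in the alpha ring all 7 null points lie left of 0.

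*Psmd2* was at 99.7 and 88.4 CPM in the null mice at day 0 and at 306 and 394 at day 15, the largest rise among the 35 genes (log2 1.89 ± 0.25, adjusted p = 0.0123). *Psmd1* was at 83.7 and 82.7 CPM and then at 134 and 223 (log2 1.10 ± 0.27, adjusted p = 0.0318). Both treated mice were above both untreated mice for each scaffold. *Psmd4* was likewise set apart, at 89.6 and 74.4 CPM against 119 and 131, and did not pass (adjusted p = 0.0894).

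Of the ATPase ring, *Psmc5* went from 84.1 and 46.0 CPM to 161 and 166 (log2 1.31 ± 0.31, adjusted p = 0.0283). *Psmc4* went from 119 and 111 CPM to 185 and 244 (adjusted p = 0.037) and *Psmc1* from 116 and 94.9 to 179 and 195 (adjusted p = 0.0396). *Psmc6* (ENSMUSG00000021832, chromosome 14, 45329788 to 45349705) moved the other way, from 52.6 and 84.8 CPM to 22 and 26.2 (log2 -1.5 ± 0.30, adjusted p = 0.0201). The groups of all 6 ATPase genes were apart, 5 with the treated null mice higher and *Psmc6* with them lower. Of all genes 31.0% were apart and higher and 30.3% apart and lower.

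All 7 alpha ring genes had both treated null mice below both untreated null mice (30.3% of all genes did), and 3 of them fell (7.23%). *Psma1* (ENSMUSG00000030751, chromosome 7, 114264606 to 114276118) was at 106 and 171 CPM at day 0 and at 41.7 and 56.7 at day 15 (log2 -1.49 ± 0.29, adjusted p = 0.0185). *Psma3* (ENSMUSG00000060073, chromosome 12, 70974621 to 70996347) was at 75.5 and 118 CPM and then at 19.9 and 39.1 (log2 -1.70 ± 0.37, adjusted p = 0.0221). *Psma4* was at 48.4 and 69.4 CPM and then at 21.2 and 26.5 (log2 -1.29 ± 0.31, adjusted p = 0.0288). In each of these genes the highest of the 8 libraries was *Hsf1* null day 0 replicate 2, the library with the raised genes of low GC content, and the lowest was *Hsf1* null day 15 replicate 1. The other alpha ring genes did not pass by edgeR, and DESeq2 called *Psma2* among them (adjusted p = 0.0423). *Psma2* was at 183 and 211 CPM and then at 86.6 and 137 (log2 -0.81, edgeR adjusted p = 0.0665), and *Psma5* at 141 and 137 and then at 76.6 and 123 (log2 -0.48, adjusted p = 0.246). *Psma6* was at 176 and 215 CPM and then at 154 and 162 (log2 -0.31, adjusted p = 0.373), and *Psma7* at 230 and 240 and then at 204 and 171 (log2 -0.32, adjusted p = 0.375). The same 4 genes in WT mice had log2 fold changes of 0.04, 0.02, 0.09 and 0.29.

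By edgeR *Psmb3* was the beta ring gene that rose in the null mice, from 122 and 93.4 CPM to 205 and 261 (log2 1.11 ± 0.24, adjusted p = 0.0237). *Psmb2* was at 126 and 106 CPM and then at 172 and 217, without overlap, and DESeq2 alone called it (adjusted p of 0.0581 by edgeR and 0.0433 by DESeq2). *Psmb7* was at 71.9 and 88.0 CPM and then at 41.9 and 55.5, with both treated mice lower (log2 -0.71 ± 0.25, adjusted p = 0.0804). *Psmb6* was at 76.0 and 52.8 CPM and then at 110 and 86.8 (adjusted p = 0.146). *Psmb5* stayed within the spread of its replicates, at 26.4 and 19 CPM and then at 24.7 and 21.8, with a 95% interval of the log2 fold change from -0.72 to 0.74.

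The lid held a subunit on either side. *Psmd8* was at 260 and 188 CPM at day 0 and at 544 and 543 at day 15 (log2 1.28 ± 0.26, adjusted p = 0.0197). *Psmd14* was at 39.1 and 76.2 CPM and then at 20.9 and 30.9, with no overlap and no call by edgeR (log2 -1.13 ± 0.34, adjusted p = 0.0553), while DESeq2 gave an adjusted p of 0.0226. Of the assembly chaperones, *Psmd10* (gankyrin) rose from 15.9 and 14.4 CPM to 35.7 and 31.6 (log2 1.14 ± 0.33, adjusted p = 0.0493). *Psmd9* was at 36.6 and 27 CPM and then at 49.5 and 47.7, and *Psmd5* at 49.8 and 69.4 and then at 24 and 39.6, and neither passed.

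**Figure D3:**
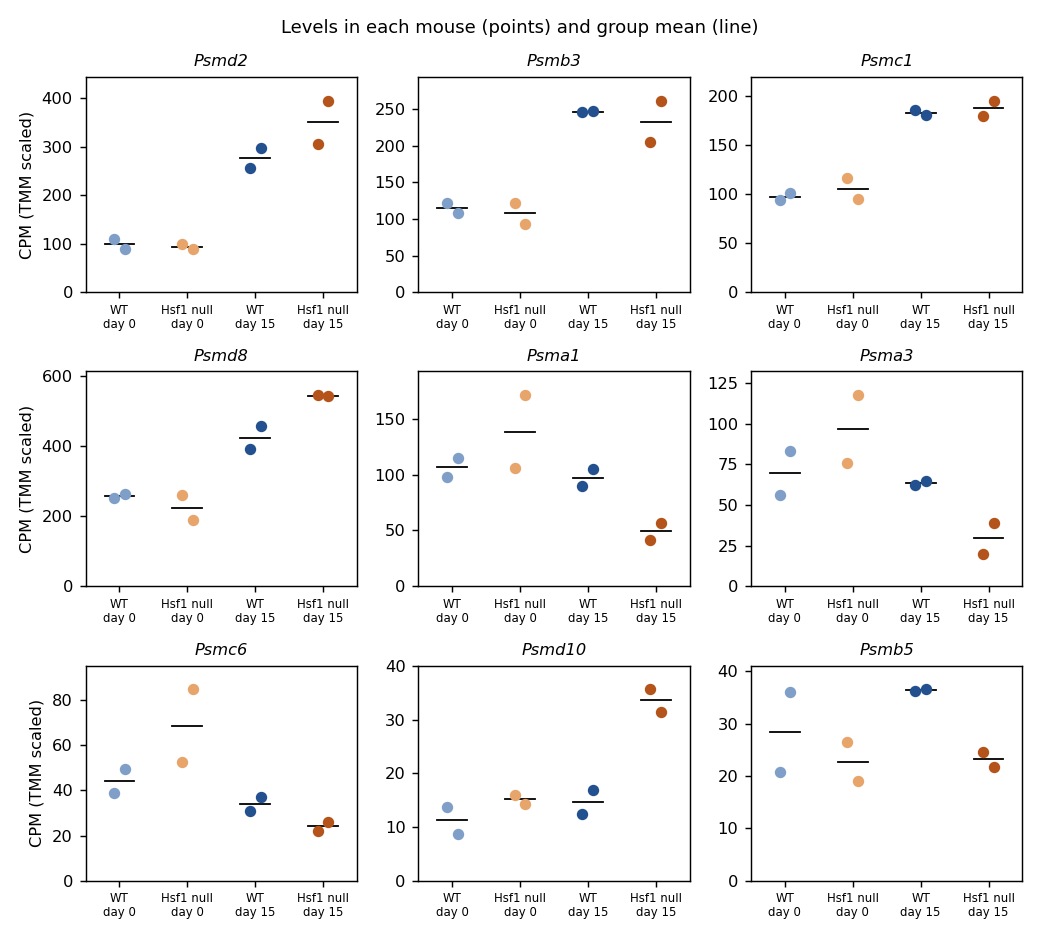
CPM (vertical axes, from 0) of 9 genes in each mouse (points) with the group mean (line), for the 4 groups. Treated mice of both genotypes are above the untreated mice in *Psmd2*, *Psmb3*, *Psmc1* and *Psmd8*, while in *Psma1* and *Psma3* only the null mice at day 15 are below all other libraries.

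*Psmb1*, *Psmb4* and the lid genes *Psmd6*, *Psmd7*, *Psmd12* and *Psmd13* did not pass by edgeR between days in either genotype. *Psmb1*, the subunit with the highest level, was at 389 and 437 CPM in WT at day 0 and at 437 and 487 at day 15, and in null mice at 521 and 629 and then at 548 and 576, with the days overlapping in null mice and meeting at the same value in WT. *Psmb4*, which holds the beta rings together, was at 165 and 218 CPM in WT at day 0 and at 332 and 294 at day 15, and in null mice at 231 and 138 and then at 320 and 325. For *Psmb4* the groups did not overlap in either genotype, and neither change passed (log2 0.71 and 0.80, adjusted p of 0.146 and 0.0902).

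The lid gene *Psmd13* was higher in both treated mice of both genotypes, and in null mice, at 57.5 and 60.7 CPM and then at 100.2 and 93.5, it did not pass (log2 0.71, adjusted p = 0.0532). *Psmd7*, partner of the deubiquitinase, was at 62.2 and 77.0 CPM in WT at day 0 and at 71.7 and 80.8 at day 15, and in null mice at 74.9 and 78.3 and then at 50.3 and 51.9. *Psmd6* was at 33.9 and 49.2 CPM and then at 47.0 and 45.7 in WT, and at 42.5 and 42.4 and then at 19.2 and 36.2 in null mice. Both genes overlapped between days in WT and were lower in both treated null mice. *Psmd12* was at 41.4 and 37.3 CPM and then at 44.5 and 62.5 in WT, higher in both treated mice, and at 48.7 and 67.2 and then at 37.7 and 61.0 in null mice, with overlap.

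The calls in null mice depended on the small library and on both treated mice. Without *Hsf1* null day 0 replicate 2, 0 of 35 genes were called, by the adjusted p alone as well, with 14 at an unadjusted p under 0.05 and 0 genes called in the whole table. Without *Hsf1* null day 15 replicate 1, 3 genes were called, all higher, and without replicate 2 of that group 3 were called, 1 higher and 2 lower. In the whole table these fits called 487 and 361 genes, in place of 1692. In these fits the group left with 1 mouse was assumed to vary like the other groups. Each of the 12 genes that passed had the same sign whichever library was left out, with a log2 fold change of 1.70 to 2.07 for *Psmd2*, -1.80 to -1.11 for *Psma1*, -2.27 to -1.29 for *Psma3* and -1.81 to -1.12 for *Psmc6*.

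GC content of the transcript moved with these differences. Across the 35 genes, the log2 fold change from day 0 to day 15 had a Pearson r with GC content of 0.60 in the null mice and of 0.59 in the WT mice, where over the 14282 tested genes with a known transcript it was 0.47 and 0.23. The 4 genes that fell in null mice had a GC content of 37.0% to 45% and the 8 that rose had 42.3% to 53.8%. With offsets for GC content and transcript length in the model, 3 genes still rose in null mice, *Psmd2*, *Psmd1* and *Psmd10* (log2 1.79, 1.35 and 1.68), and 1 fell, *Psma1* (-1.09, adjusted p = 0.0313 by edgeR). That is 4 of 35, where 4.75% of all genes were called, so the calls of the whole table were fewer as well. *Psmc6* went from -1.5 to -0.40 (adjusted p = 0.322) and *Psma3* from -1.70 to -0.95 (adjusted p = 0.0799). In WT mice with these offsets 5 genes rose (7.91% of all genes were called), *Psmd2*, *Psmd1*, *Psmc1*, *Psmc2* and *Psmb2*, while *Psmb3* and *Psmc4* did not pass (log2 0.74 and 0.64, adjusted p of 0.0622 and 0.1003).

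**Figure D4:**
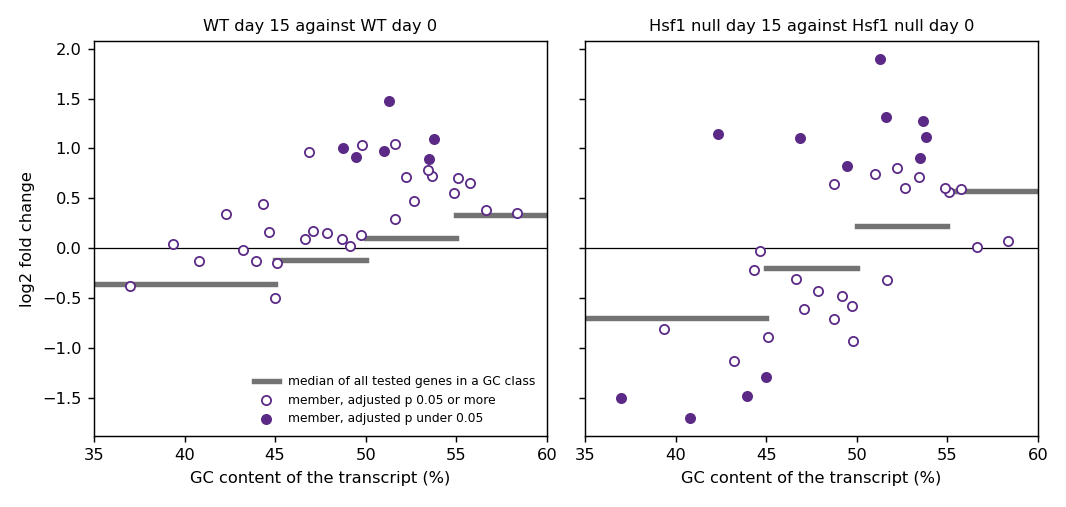
Log2 fold change from day 0 to day 15 (vertical axis) against GC content of the transcript in percent (horizontal axis) for the 35 genes (points, filled at an adjusted p under 0.05) in WT mice on the left and *Hsf1* null mice on the right, with grey bars for the median of all tested genes in each GC class. In null mice the grey bars climb from -0.71 to 0.57 and the 4 filled points below 0 lie at 37.0% to 45% GC.

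Ratios within a library need no scaling between libraries, but they are not free of the differences by GC content: the median over alpha ring genes was 45% GC and over ATPase genes 50.5%, and the highest ratio below is that of the library with raised genes of low GC content. The summed alpha ring stood to the summed ATPase ring at 1.42 and 1.53 in WT at day 0, at 1.45 and 2.03 in *Hsf1* null at day 0, at 0.835 and 0.906 in WT at day 15 and at 0.663 and 0.670 in *Hsf1* null at day 15. All treated mice of both genotypes were below all untreated mice, and the null mice at day 15 were below the WT mice at day 15. The beta to ATPase ratio was 1.79 and 1.82 in WT at day 0 and 1.52 and 1.47 at day 15, and 1.77 and 1.96 and then 1.56 and 1.44 in null mice, so that it too was lower in every treated mouse. No test was made of these sums.

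Between genotypes at day 15, 0 of 35 genes passed with WT set against *Hsf1* null, where 1.26% of all tested genes were higher and 1.91% lower in WT, and 3.17% were called with the fold limit. DESeq2 called 3 by its adjusted p (9.28% of all genes), *Psma1* and *Psma3* higher and *Psmd10* lower in WT, and 2 with the fold limit (8.41%), and 9 of 35 had an unadjusted p under 0.05 by edgeR (23.2%). Both WT mice were above both null mice for 15 genes and below for 7, where 28.6% and 26.3% of all genes did so. The median log2 value was 0.16, against 0.035 over all genes, and -0.019 without *Hsf1* null day 15 replicate 1. The comparison shares the null mice at day 15 with the one above. *Psma1* was at 89.8 and 105 CPM in WT against 41.7 and 56.7 in null mice (log2 0.98 ± 0.29, adjusted p = 0.0843), and *Psma3* at 62.1 and 65.0 against 19.9 and 39.1 (log2 1.11 ± 0.36, adjusted p = 0.111). *Psmd10* was at 12.4 and 16.9 CPM against 35.7 and 31.6 (log2 -1.20 ± 0.33, adjusted p = 0.072).

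The lid and the catalytic ring gave further genes with no overlap at day 15. *Psmd3*, a scaffold of the lid, was at 146 and 106 CPM in WT and at 74.5 and 66.5 in null mice (log2 0.83 ± 0.25, adjusted p = 0.0882), and *Psmd11*, which holds lid and base together, at 99.8 and 104 against 51.3 and 66.7 (adjusted p = 0.112). *Psmb7* was at 81.9 and 85.8 CPM against 41.9 and 55.5 (log2 0.78 ± 0.24, adjusted p = 0.101). *Psmd8* and *Psmd2* lay lower in WT, by -0.36 and -0.34 (log2, adjusted p of 0.417 and 0.43). With the GC and length offsets *Psma1* and *Psmb7* passed in this comparison (log2 0.96 and 0.86, adjusted p of 0.0364 and 0.0444), 2 of 35 where 6.41% of all genes did so. Without *Hsf1* null day 15 replicate 2, which leaves 1 mouse in that group, the median log2 value over the 35 genes was 0.36. The meiotic gene *Psmc3ip*, with 5.92 and 9.61 CPM in WT and 0.776 and 3.48 in null mice, did not pass (log2 1.84 ± 0.68, adjusted p = 0.145).

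At day 0, 0 of 35 genes differed between WT and *Hsf1* null mice by edgeR and 0 by DESeq2, with 3 at an unadjusted p under 0.05 (6.29% of all genes), and with the fold limit 0% of all genes were called by edgeR and 0.125% by DESeq2. Both WT mice were above both null mice for 3 genes and below for 9, where 18.4% and 18.7% of all genes did so, and the median log2 value was -0.12, against 0.011 over all genes. The smallest p was that of *Psma2*, at 127 and 128 CPM in WT against 183 and 211 in null mice (log2 -0.63 ± 0.26, adjusted p = 0.775). *Psma6* was at 124 and 146 CPM against 176 and 215 and *Psmd3* at 90.9 and 107 against 72.8 and 60.4 (adjusted p of 0.775 and 0.783). All 7 alpha ring genes had a negative log2 value, from -0.13 to -0.63. Across the 35 genes these values had a Pearson r of 0.82 with GC content, against 0.27 over all genes, and the comparison holds both small libraries.

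Whether the response differed between genotypes was tested as an interaction, the WT change minus the *Hsf1* null change. Of the 35 genes 0 passed by edgeR and 0 by DESeq2 (0.835% of all genes), with 7 at an unadjusted p under 0.05 (8.62%), and 1 gene of the whole table passed by edgeR (0.00696%). The median difference was 0.36 (log2), against -0.0034 over all genes. The smallest p values were those of *Psma1* (log2 difference 1.36 ± 0.40, adjusted p = 0.43), *Psma3* (1.58 ± 0.51, adjusted p = 0.453) and *Psmc6* (1.12 ± 0.42, adjusted p = 0.51). All 7 alpha ring genes had a positive difference, from 0.40 to 1.58, and all 3 base genes a negative one, from -0.42 to -0.05. For *Psmd2* the difference was -0.42 ± 0.34 and for *Psmb3* -0.01 ± 0.34, with 95% intervals from -1.19 to 0.35 and from -0.77 to 0.75. The divergence of the alpha ring between genotypes is therefore not shown by a test of the difference itself.

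Across all 4 groups, 15 of 35 genes differed (adjusted p under 0.05), where 21.6% of all genes did so, DESeq2 called 18 (31.5%) and 22 had an unadjusted p under 0.05 (40.7%). They were *Psma1*, *Psma3* and *Psma4* of the alpha ring, *Psmb2* and *Psmb3* of the beta ring, all of the ATPase ring but *Psmc3*, *Psmd1* and *Psmd2* of the base, *Psmd8* and *Psmd13* of the lid, and *Psmd10*. *Psmd2* had the smallest adjusted p, 0.00434. The count was 8 without WT day 0 replicate 1, 6 without WT day 0 replicate 2, 3 without *Hsf1* null day 0 replicate 2 and 5 without WT day 15 replicate 2, while the calls of the whole table went from 3099 to 2203, 2043, 934 and 1123.

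Of 47 other genes of the pathway, listed by role, 10 rose and 5 fell in null mice from day 0 to day 15, where 6.07% and 7.23% of all genes did so. Like the null calls of the members, these depend on *Hsf1* null day 0 replicate 2, the library with raised genes of low GC content. With offsets for GC content and transcript length, null calls of the whole table with the fold limit went from 1692 to 620. The 47 genes were not looked at singly with the offsets. In WT mice 0 of the 47 passed by edgeR, 19 had an unadjusted p under 0.05 and DESeq2 called 11, against 27.6% and 13.8% of all genes. Assembly factors were among those that rose in null mice: *Pomp*, which matures the beta ring, went from 115 and 113 CPM to 212 and 338 (log2 1.27 ± 0.28, adjusted p = 0.0237), and *Psmg1*, a chaperone of the alpha ring, from 23.8 and 14.7 to 34.4 and 50 (adjusted p = 0.048). Of the 5 activators and inhibitor, 2 rose, and *Psme2*, the partner of *Psme1* in the interferon-induced cap, went from 118 and 98.8 CPM to 447 and 399 (log2 1.96 ± 0.35, adjusted p = 0.0156). In WT mice *Pomp* was at 92.7 and 88.5 CPM and then at 155 and 208, and *Psme2* at 119 and 101 and then at 156 and 340, without overlap in either gene.

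Regulators of the subunit genes moved both ways in null mice. *Nfe2l1* itself was at 124 and 112 CPM at day 0 and at 221 and 140 at day 15 and did not pass (log2 0.61 ± 0.28, adjusted p = 0.158). *Mafg*, encoding a small partner of its product, rose (log2 1.38 ± 0.33, adjusted p = 0.0303), whereas *Ngly1*, whose product processes it, fell (log2 -1.13 ± 0.27, adjusted p = 0.0302). *Nfe2l2*, the antioxidant regulator, fell from 115 and 269 CPM to 36.5 and 51.4 (log2 -2.12 ± 0.43, adjusted p = 0.0199). Of the ubiquitin genes and activating enzymes, *Ubb* fell from 88.9 and 129 CPM to 29.0 and 15.2 (adjusted p = 0.0123) and *Uba1* rose (log2 0.87 ± 0.24, adjusted p = 0.0441). *Ubb* was also the one gene of the 47 that passed between genotypes at day 15, at 82.3 and 75.0 CPM in WT and 29.0 and 15.2 in null mice (log2 1.83 ± 0.33, adjusted p = 0.024). Of all genes 1.26% were higher and 1.91% lower in WT there. The p97 complex, which extracts substrates for the proteasome, had 0 of 5 genes called by edgeR in either day comparison, with 2 at an unadjusted p under 0.05 and 1 called by DESeq2 in each, where 27.6% and 13.8% of all genes did so in WT and 32.6% and 18.5% in null mice.

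The inducible catalytic genes were compared with the constitutive ones they replace as ratios of CPM per kb within each library. *Psmb10* stood to *Psmb7* at 1.12 and 1.16 in WT and at 1.14 and 0.943 in null mice at day 0, and at 1.44 and 2.19 in WT and 3.92 and 2.0 in null mice at day 15, so all treated mice were above all untreated ones. *Psmb9* to *Psmb6* was 0.179 and 0.233 in the null mice at day 0 and 0.508 and 0.422 at day 15, but in WT mice it was 0.359 and 0.247 and then 0.212 and 0.845, with overlap. *Psmb8* to *Psmb5* overlapped between days in both genotypes, from 0.850 to 2.45 at day 0 and from 1.04 to 4.07 at day 15 in WT. Of the 3 inducible genes, *Psmb9* rose in null mice (log2 1.83 ± 0.50, adjusted p = 0.0421), together with *Tap1*, *Tap2* and *Tapbp* of class I peptide loading (log2 2.29, 2.13 and 1.67), and in WT mice none of these 4 passed by edgeR while DESeq2 called all 4 (adjusted p of 0.0227 for *Psmb9*, 0.00695 for *Tap1*, 0.028 for *Tap2* and 0.0223 for *Tapbp*). Of the inducible genes 1 of 3 and of the class I list 3 of 6 rose in null mice, where 6.07% of all genes did so, and DESeq2 called 13.8% of all genes in WT mice. In WT mice replicate 2 at day 15 was well above replicate 1 in each.

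**Figure D5:**
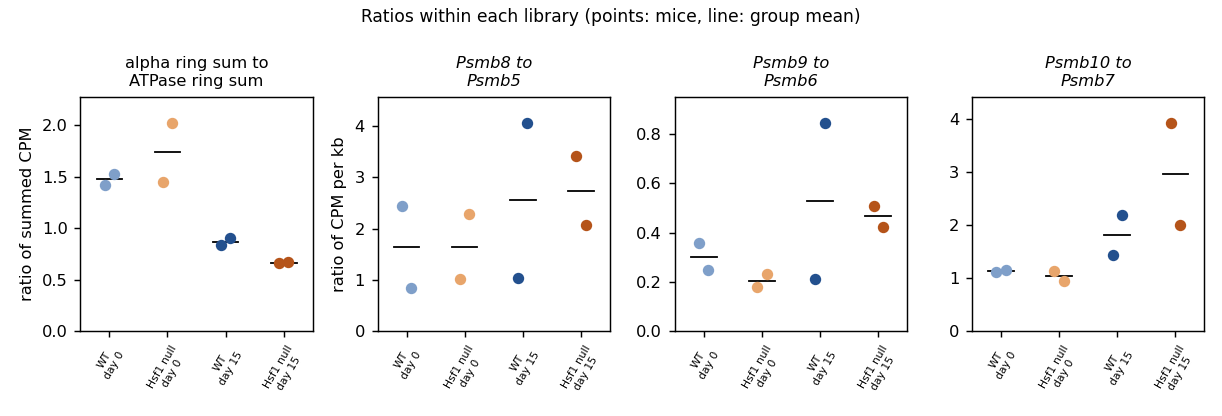
Ratios within each library (vertical axes, from 0) for each mouse (points) with the group mean (line): summed CPM of the alpha ring to the ATPase ring, and CPM per kb of each inducible catalytic gene to its constitutive counterpart. The alpha to ATPase ratio is below 1 in all 4 treated mice and above 1.4 in all 4 untreated ones.

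Cell type markers moved with these groups as well. The summed level of 4 neutrophil markers was 93.3 and 417 CPM in WT at day 15 and 4.65 and 19.8 in null mice at day 15, against 3.18 to 10.2 at day 0. Of the 4, 2 were called higher in WT from day 0 to day 15 (3.71% of all genes). *S100a8* was at 0 in a null library of each day. Smooth muscle markers (6 of 6 counted) summed to 6899 and 9456 CPM in WT at day 0, 3462 and 2025 in WT at day 15, 6756 and 6624 in null mice at day 0 and 5013 and 5819 in null mice at day 15. Of the 6, 5 were called lower in WT from day 0 to day 15 (4.43% of all genes). Fibroblast markers (6 of 6) summed to 438 and 1408 CPM in null mice at day 15 and to 2321 and 2344 in WT, and B and plasma cell markers (6 of 6) to 231 and 465 against 3251 and 3590. At day 0 the fibroblast sum was 2479 and 918 CPM in WT and 771 and 1130 in null mice, and the B and plasma cell sum 1955 and 1707 against 592 and 1425. In null mice the log2 value from day 0 to day 15 was positive for 4 of the 6 B and plasma cell markers and negative for 2. The median was 0.97 and the lowest -2.70, so the sum and most of the list went opposite ways. T cell markers (5 of 5) were higher in all treated mice than in the untreated mice of their genotype, at 33.2 and 12.7 CPM and then 75.2 and 120 in WT and at 12.4 and 10.4 and then 30.4 and 58.8 in null mice. Of the 8 colonocyte markers 2 were called lower at day 15 in each genotype (4.43% of all genes in WT and 7.23% in null mice). All 8 had both WT mice below both null mice at day 15 (26.3% of all genes), with 1 called (1.91%). Markers of dividing cells (5 of 5) were at 866 and 792 CPM in WT at day 15 against 554 and 487 at day 0, and at 321 and 771 in null mice at day 15 against 307 and 473. Goblet cell markers (6 of 6) summed to 5589 and 7636 CPM in WT at day 15 and to 23992 and 13185 in null mice at day 15, against 11949 and 15677 in WT and 15236 and 12354 in null mice at day 0. Of the 6, 2 were called lower in WT at day 15 both against null mice and against day 0 (1.91% and 4.43% of all genes). Macrophage markers (5 of 5) summed to 454 and 637 CPM in WT and 172 and 283 in null mice at day 15, against 149 to 241 at day 0. Endothelial markers (4 of 4) summed to 277 and 226 against 59.4 and 123, with 79.8 to 132 at day 0. The part of cell composition in the proteasome differences was not tested.

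Some of the 35 genes share exon bases with a neighbour in the count table on the opposite strand, namely *Psmb7*, *Psmc3*, *Psmd1*, *Psmd13* and *Psmc3ip*, over 3.47% to 21.2% of their exon bases. Since the strand setting of the counting is not given in the sources used here, their reads may include some of the neighbour's.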

How the data were processed

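Poly(A) RNA of the distal colon of 8 mice was made into libraries with a SENSE mRNA-Seq kit. The authors aligned reads with STAR to mm10 and deposited a table of raw counts per gene, and the program and annotation used for counting are not given in the sources used here. A second deposited table, of the counts divided by size factors, was not used. Columns of per-sample values left out numbered 0.

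Of 15859 genes, 14371 had a mean normalized count over 5 and were tested. TMM-scaled counts were fitted over all 4 groups with edgeR 4.0.16 (quasi-likelihood test, R 4.3.3, prior degrees of freedom 5.97, residual 4). P-values were adjusted by Benjamini-Hochberg over all tested genes, in the 4 pairs of groups, the interaction and any difference among groups. Thresholds were an adjusted p of 0.05 and, for the stricter call, an absolute log2 fold change above 1. Fold changes are given with standard errors, and intervals are at 95%. DESeq2 1.42.0 was the alternative tool, and other alternatives were scaling, filters, thinning, each library left out and a block by replicate number. Model offsets for transcript GC and length (with or without that block), leaving out the smallest 2 libraries and exchanging the WT day 0 numbers were added after the data had been seen. Fits were tested on simulated data.

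Gene models were GENCODE M21 on GRCm38 (15276 symbols matched directly, 453 through an older symbol, 130 not matched), and promoters were from RefSeq on GRCm38.p6. Named members were the catalytic subunits, *Psmd14*, *Psmd4*, *Psmd2*, *Psmd1* and *Psmc3ip*, the 5 with the smallest p in each direction of a comparison, the 3 with the highest and the 3 with the lowest level per length, and those called with the fold limit. The other members and the pathway genes given as examples were chosen after their values were seen. The members and gene lists were chosen with earlier results of these data known. Nothing states that mice of a group came from separate litters. The p-values rest on the spread between these animals, pooled over the 4 groups and drawn towards that of other genes. Totals ran from 2553348 to 12440257 counts, so counting error was largest in the 2 small libraries.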

Additional observations from a re-analysis of the deposited data

Results flagged for a closer look

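*Psma7*, an alpha ring gene, had log2 fold changes of opposite sign in the genotypes, 0.29 in WT and -0.32 in *Hsf1* null mice, and neither passed by edgeR (adjusted p of 0.450 and 0.375). Both WT mice at day 15 (243 and 281 CPM) were above both at day 0 (190 and 238), and both *Hsf1* null mice at day 15 (204 and 171) were below both at day 0 (230 and 240). The gene was flagged because its days did not overlap and lay in opposite directions in the genotypes, so this separation restates the rule. Of all genes, 31.0% were apart and higher at day 15 in WT mice and 30.3% apart and lower in null mice. The WT change exceeded the null change by 0.61 ± 0.33 (log2, SE), and by edgeR's interaction test the adjusted p was 0.645, with 0.0962 before adjustment. The cause was not tested.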

How the results depend on the processing

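With the fold limit, the counts of called members were 0 between genotypes at day 15, 3 from day 0 to day 15 in WT, 10 in *Hsf1* null mice and 15 among the 4 groups. Between genotypes at day 15, DESeq2 gave 2, with 1208 of 14371 genes called, and thinning to the smallest library gave 1, with 261 of 13041 called. With no limit on the fold, WT mice gave 6, where 1169 of 14371 genes were called. At an adjusted p under 0.005 the counts were 0 in WT, 0 in null mice and 1 among the groups. Of all 14371 genes, 12, 0 and 89 were called there. Without the 2 smallest libraries they were 0 in all 3, with 11, 12 and 13 at an unadjusted p under 0.05, and of all 14760 genes 4, 0 and 48 were called by the adjusted p. Offsets for GC content and length gave 4 in null mice, where 620 of 14282 genes were called. With the replicate block as well they gave 3 in null mice and 5 among the groups, where 216 and 1380 of the 14282 genes were called. Leaving out each library in turn gave 0 to 2 between genotypes at day 15, 0 to 3 in WT, 0 to 10 in null mice and 3 to 14 among the groups. At day 0 and for the interaction every setting run gave 0.

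With the fold limit, the replicate block gave 2 called members in WT, 10 in null mice, 15 among the groups and 0 in the other comparisons. By the adjusted p alone it gave 4 in WT, 11 in null mice and 15 among the groups, where 6.13%, 11.5% and 17.7% of all genes were called. Between genotypes at day 15 it gave 0 by the adjusted p, where 2.39% of all genes were called. Same-numbered mice are different animals, and the correlation of their deviations ran from -0.30 to 0.17 over the 6 pairs of groups. With the WT day 0 numbers exchanged in the block, 3 were called in WT with the fold limit.

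The median log2 values with total counts only were 0.30 between genotypes at day 15, -0.10 in null mice and 0.45 for the interaction. Without the 2 smallest libraries they were -0.25 between genotypes at day 0, 0.47 in WT and 0.47 for the interaction, and with GC and length offsets 0.27 in WT. Leaving out each library gave -0.019 to 0.36 between genotypes at day 15, -0.22 to -0.028 at day 0, 0.37 to 0.48 in WT, 0.0093 to 0.22 in null mice and 0.19 to 0.41 for the interaction. The summed level in null mice at day 0 was 3901 CPM with total counts only, 3751 for subunits proper and 3813 to 3903 with 1 library. Without division by length, *Psmb8* stood to *Psmb5* at 3.89 and *Psmb9* to *Psmb6* at 0.636 over the 8 libraries.

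Signs turned only for values that had not passed. Between genotypes at day 0, *Psmb5* (0.28) ran from -0.17 to 0.65 with each library left out and was -0.36 without the 2 smallest, *Psmd8* (0.20) ran from -0.018 to 0.45 and was -0.065, and *Psmd11* (0.21) ran from -0.032 to 0.47. In WT mice from day 0 to day 15, *Psma1* ran from -0.24 to 0.0011 and *Psma3* from -0.39 to 0.19. *Psma3* was 0.20 with the GC and length offsets, 0.23 with these and the block and 0.17 without the 2 smallest libraries. *Psmc6* was 0.056 with the offsets and 0.053 with the block as well, and *Psmd5* 0.13 in both. In the interaction, *Psmc5* ran from -0.79 to 0.079 and was 0.34 without the 2 smallest, and *Psmd1* ran from -0.46 to 0.27 and was 0.045 with thinned counts. Of the other values of single genes under the alternatives, 889 kept their direction and side of the threshold, 153 lost the threshold and 10 gained it. The cause was not tested.

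Each group held 2 mice. With every library thinned to the smallest total, the counts of called members were 2 in WT, 7 in null mice and 12 among the groups. The calls of the whole table in these thinned fits are not given here, so the counts cannot be set against all genes. Over all genes and without thinning, calls with the fold limit by edgeR and DESeq2 were 455 and 1208 between genotypes at day 15, 0 and 18 at day 0, 1112 and 1737 in WT, 1692 and 2203 in null mice and 1 and 120 for the interaction.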
